A study of Mus musculus with 9 samples.

Results

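The miR-17-92 cluster and its paralog, the miR-106a-363 cluster, were examined in the extracellular vesicles of mouse podocytes. The members are 10 guide-arm miRNAs, chosen by name from the 1915 mouse miRNA identifiers of each table: mmu-miR-17-5p, mmu-miR-18a-5p, mmu-miR-19a-3p, mmu-miR-20a-5p, mmu-miR-19b-3p and mmu-miR-92a-3p of the first cluster, and mmu-miR-106a-5p, mmu-miR-18b-5p, mmu-miR-20b-5p and mmu-miR-363-3p, which the second cluster alone encodes. The guide arm is the strand of a hairpin that is usually loaded into Argonaute, and the mouse prefix mmu- is left off the names from here on. Of the 10 members, 4 were listed in all 9 libraries, 4 in some and 2 in none.

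Podocytes are epithelial cells of the kidney filter whose foot processes cover the glomerular capillaries. All 9 libraries come from 1 conditionally immortalized mouse podocyte line, differentiated for 10 days, with fetal bovine serum in the medium, and then treated for 48 h. The normal glucose group received 5.3 mM glucose, the high glucose group 30 mM glucose, and the mannitol group 5.3 mM glucose with 24.7 mM mannitol as the control for osmolality, with 3 libraries each. Vesicles were precipitated from the medium with a polymer reagent, and whether the serum had been depleted of bovine vesicles is not stated in the labels. Separate cultures are not named for the libraries of a group either, and the p-values therefore cover the spread between these samples alone, which may be technical.

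The miR-17-92 cluster is transcribed as 1 long RNA, from which the hairpins are cut, and it is known as an oncogenic and growth-promoting locus that Myc and E2F factors activate. Its guides fall into families by their seed, the bases that pair with target mRNAs: miR-17, miR-18, miR-19 and miR-92. In the kidney the cluster is needed for nephron progenitors during development. Another relative, the miR-106b-25 cluster in an intron of Mcm7, encodes further guides with the seeds of miR-17 and miR-92.

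The 6 hairpins of the miR-17-92 cluster lie on chromosome 14 on the plus strand, at chr14:115043671-115044506, a span of 836 bases, and all are exonic in Mir17hg, the non-coding host gene annotated at 115042879 to 115046727 (GENCODE M21, GRCm38). The 6 hairpins of the miR-106a-363 cluster lie on the minus strand at chrX:52741693-52742567, a span of 875 bases. There Mir106a overlaps the end of the annotated non-coding gene Kis2 in part, and the other 5 hairpins lie outside it. The mature sequences of all 10 members are shown because they decide which reads can be assigned to which cluster. They were taken from RefSeq (GRCm38.p6), where all 10 were found, and the capitals mark the seed, bases 2 to 8 counted from the 5′ end.
miR-17-5p: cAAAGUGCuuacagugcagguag
miR-106a-5p: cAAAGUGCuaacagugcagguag
miR-20a-5p: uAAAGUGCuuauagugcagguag
miR-20b-5p: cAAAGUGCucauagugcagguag
miR-18a-5p: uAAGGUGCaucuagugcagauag
miR-18b-5p: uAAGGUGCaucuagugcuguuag
miR-19a-3p: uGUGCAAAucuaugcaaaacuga
miR-19b-3p: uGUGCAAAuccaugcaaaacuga
miR-92a-3p: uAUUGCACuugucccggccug
miR-363-3p: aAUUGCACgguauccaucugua

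The 10 sequences hold 4 seeds. Between miR-17-5p and miR-106a-5p the difference is U10A, the first letter being the base of the miRNA named first and the number its position from the 5′ end. From miR-20a-5p to miR-20b-5p the differences are U1C and U10C, from miR-18a-5p to miR-18b-5p A18U and A20U, and from miR-19a-3p to miR-19b-3p U11C. The sources used here do not say how reads with such single mismatches were counted, so the division of reads within these pairs is uncertain. For miR-19b-3p and miR-92a-3p the mature sequence is the same from both clusters (Mir19b-1 and Mir19b-2, Mir92-1 and Mir92-2), and their reads cannot be assigned to either.

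The members that only the chromosome X cluster encodes were listed in 1 library at most, on the division of reads between near-identical guides that the tables give. Of these 4, miR-106a-5p and miR-18b-5p were listed in no library, miR-20b-5p in high glucose replicate 3 alone with 12 counts, and miR-363-3p in mannitol replicate 3 alone with 13 counts. No count from 1 to 9 occurs in the tables, so a listed 0 stands for 0 to 9 reads, which is at most 12.4 CPM (the count as a share of all miRNA counts of its library, scaled to 1000000) in high glucose replicate 1, the shallowest library, and 3.52 to 8.28 CPM in the others. If the tables divide the reads correctly, then beside 355 to 1258 counts of miR-17-5p, a miR-106a-5p count of 9 would make up 0.710% to 2.47% of the pair. On the same condition, for miR-20b-5p, taking 9 counts where it was listed at 0, the share of the pair with miR-20a-5p would be at most 1.20%. For miR-18a-5p and miR-18b-5p the share cannot be bounded usefully, since miR-18a-5p itself was listed in 2 libraries only, with 11 counts in normal glucose replicate 3 and 10 in high glucose replicate 3.

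**Figure D1:**
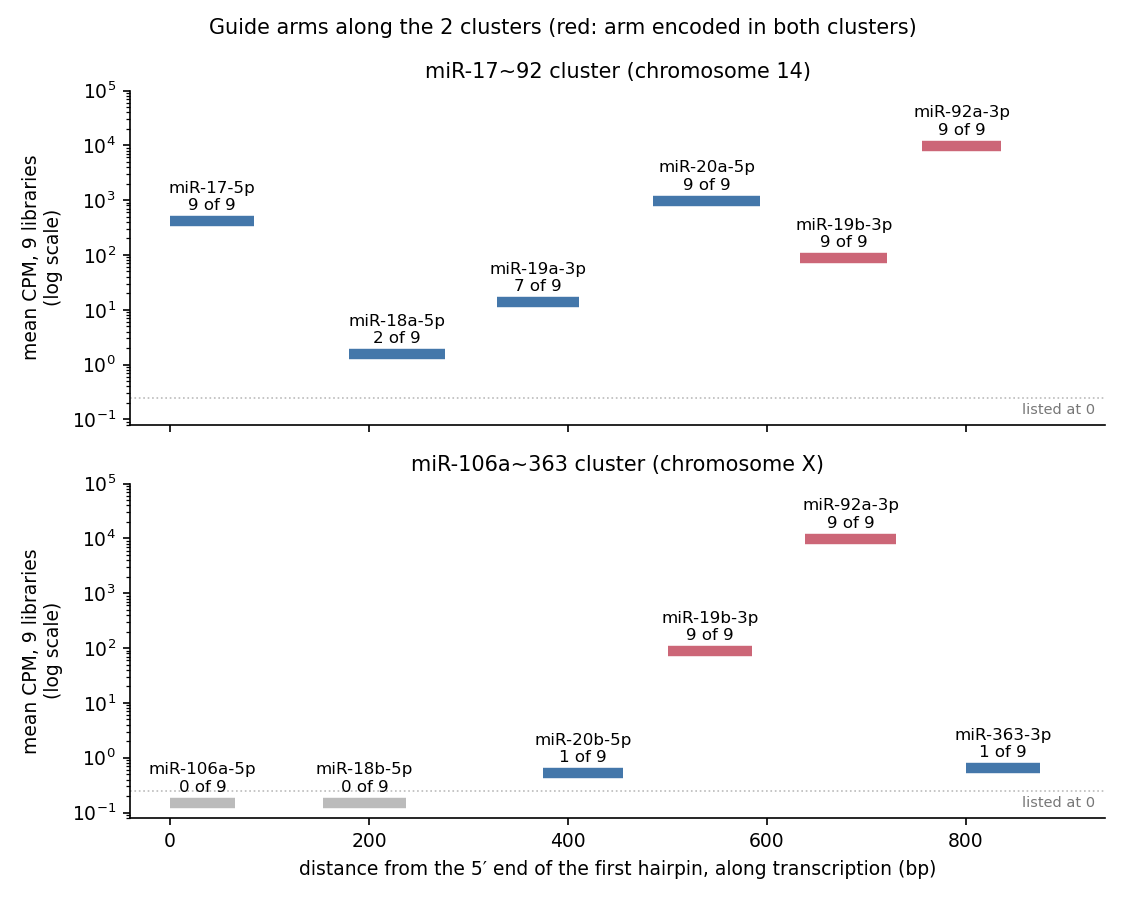
Mean level of each guide arm over the 9 libraries (CPM, log scale) at the position of its hairpin, as distance in bases from the first hairpin of its cluster, with the number of libraries that list it. Segments span the hairpin, red segments are guides that both clusters encode and show the same reads in both panels, and grey segments under the dotted line are guides listed in no library. Means count a listed 0 as 0 and are lower bounds where one occurs. Levels within the chromosome 14 cluster differ by orders of magnitude, from miR-18a-5p at 1.54 CPM, listed in 2 libraries only, to miR-92a-3p at 9829 CPM.

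The opposite hairpin arms, which are usually degraded, gave little signal. Of the 12 identifiers, 11 were listed in no library. The exception was miR-18a-3p, listed in 6 libraries at 10 to 20 counts, more libraries than listed its guide miR-18a-5p. For miR-92a-3p the opposite arms miR-92a-1-5p and miR-92a-2-5p, whose sequences differ between the clusters, were both listed at 0 beside 135436 counts of the guide over the 9 libraries, so they give no value on which cluster the guide came from.

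Members of the chromosome 14 cluster spanned a wide range of levels. By the mean over 9 libraries the order was miR-92a-3p at 9829 CPM, miR-20a-5p at 961 CPM, miR-17-5p at 414 CPM, miR-19b-3p at 86.7 CPM, miR-19a-3p at 13.7 CPM and miR-18a-5p at 1.54 CPM. The means of miR-19a-3p and miR-18a-5p count listed zeros as 0 and are thus lower bounds. They come from 7 and 2 libraries that list the miRNA. Values are counts per miRNA without length scaling, and the members are 21 to 23 bases long. In each of the 9 libraries the first 4 stood in this order, and their ranges over all libraries overlapped for miR-20a-5p and miR-17-5p only. Together the 10 members took 0.634% to 1.69% of miRNA counts, of which miR-92a-3p made up 73.0% to 96.6%. By rank among all listed miRNAs, miR-92a-3p stood between 19 and 39, miR-20a-5p between 68 and 113, miR-17-5p between 91 and 127, and miR-19b-3p between 134 and 259.

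The level of miR-92a-3p, the last hairpin of the chromosome 14 cluster and a miRNA also abundant in red blood cells, varied widely within groups. It stood at 14689, 12274 and 6685 CPM in normal glucose replicates 1 to 3, at 13318, 4842 and 16343 CPM with mannitol, and at 8957, 4631 and 6726 CPM in high glucose. The 3 high glucose libraries lay in the lower part of the range, but normal glucose replicate 3 and mannitol replicate 2 lay among them, so that neither control group was separate from high glucose. Counting error was small beside this spread: the exact 95% binomial interval of the lowest value, high glucose replicate 2, was 4514 to 4750 CPM. Such intervals cover counting error only.

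For miR-20a-5p, a guide with the miR-17 seed, values were 1094, 1170 and 793 CPM in normal glucose, 687, 1222 and 326 CPM with mannitol, and 1190, 1132 and 1037 CPM in high glucose. Its neighbour in the same seed family, miR-17-5p, stood at 516, 378 and 364 CPM in normal glucose, 374, 477 and 204.4 CPM with mannitol, and 490, 426 and 493 CPM in high glucose. High glucose libraries were close together for both, at 1120 ± 77.3 CPM for miR-20a-5p and 469 ± 37.5 CPM for miR-17-5p (SD, n = 3), and mannitol libraries were far apart, at 745 ± 450 and 352 ± 138 CPM (SD, n = 3). Mannitol replicate 3 was the lowest of all 9 libraries for both, while mannitol replicate 2 held the highest miR-20a-5p value, and the groups overlapped.

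The guides of the miR-19 family were scarce. For miR-19b-3p the values were 69.5, 52.4 and 129 CPM in normal glucose, 24.1, 85.6 and 32.2 CPM with mannitol, and 75.8, 135 and 177 CPM in high glucose. The lowest rested on 32 counts in mannitol replicate 1 (exact 95% binomial interval 16.5 to 34.0 CPM) and the highest on 452 counts in high glucose replicate 3 (161 to 194.1 CPM). Mannitol replicates 1 and 3 were the lowest of all libraries and high glucose replicates 2 and 3 the highest, while high glucose replicate 1 lay below mannitol replicate 2.

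Its near-identical partner miR-19a-3p, from chromosome 14 alone, was listed at 11.7, 13.8 and 31.6 CPM in normal glucose, at 0, 8.18 and 5.29 CPM with mannitol and at 0, 19.6 and 33.3 CPM in high glucose. The listed 0 of mannitol replicate 1 allows up to 6.77 CPM, so all mannitol values lay below all normal glucose values. The closest pair rests on 13 counts in mannitol replicate 2 and 18 in normal glucose replicate 1. The exact 95% binomial interval of the latter reaches down to 6.93 CPM, below 8.18 CPM, so the separation is not resolved. The listed 0 of high glucose replicate 1 allows a level above the lowest normal glucose value. Where both were listed, 7 libraries, miR-19a-3p had 0.0956 to 0.263 of the counts of miR-19b-3p.

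**Figure D2:**
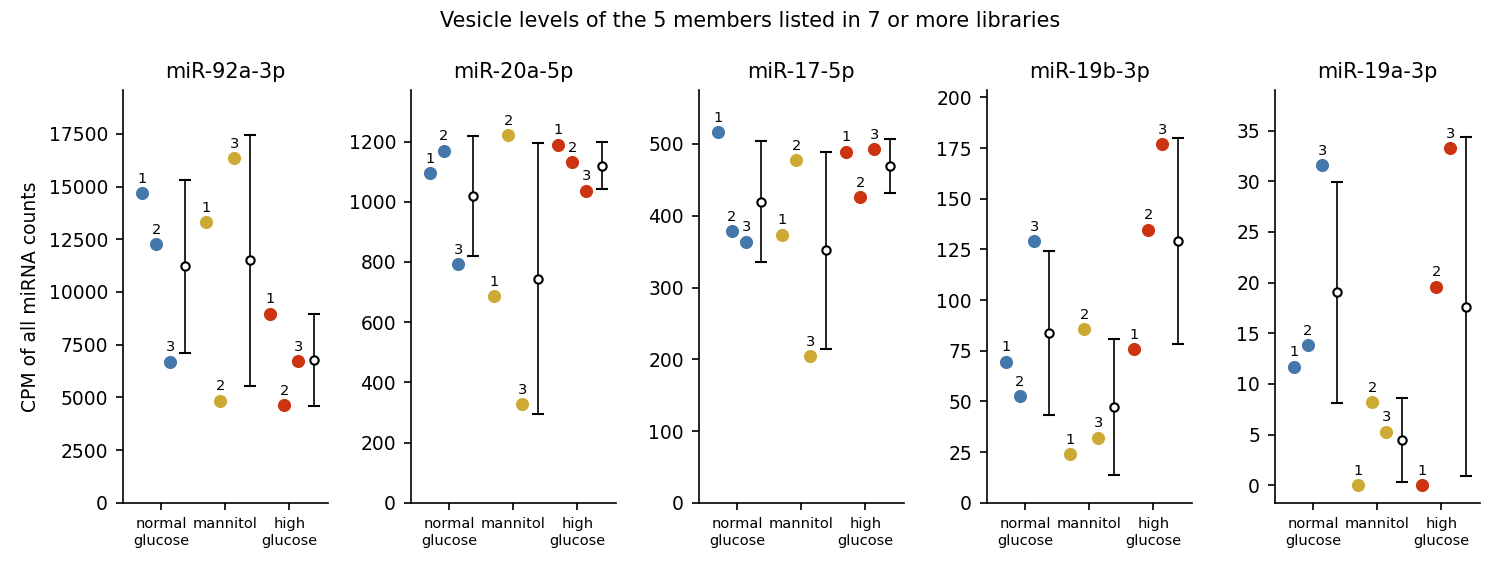
CPM in every library for the 5 members listed in 7 or more libraries, by group, each panel with its own linear scale; numbers are the replicates, open circles with bars are the mean and SD of 3 libraries, and a point at 0 is a listed 0. Mannitol replicate 3 was highest for miR-92a-3p and lowest for both miR-17 seed guides, and high glucose libraries of miR-17-5p and miR-20a-5p sat close together.

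The comparison of high with normal glucose covers the treatment as a whole, glucose and osmolality together. None of the 5 members that passed the filter on low counts differed beyond the spread between libraries. The miR-19 and miR-17 guides were on the higher side, and miR-92a-3p on the lower side. The log2 fold change of miR-92a-3p was -0.69 (SE 0.40, 95% interval -1.54 to 0.16), and it was higher in 2 of 9 pairs of a high glucose and a normal glucose library. That of miR-19b-3p was 0.80 (SE 0.51, -0.29 to 1.88), higher in 8 of 9 pairs. Smaller values came from miR-17-5p at 0.25 (SE 0.34, -0.47 to 0.97) and miR-20a-5p at 0.20 (SE 0.41, -0.68 to 1.09), and miR-19a-3p had 0.11 (SE 1.36, -2.79 to 3.01), an interval too wide to give a direction.

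In edgeR's quasi-likelihood test over all 361 tested miRNAs, 0 members and 0% of all tested passed an adjusted p of 0.05, and each of the 5 members had an adjusted p of 0.995. At an unadjusted p under 0.05 there were 0 of 5 members and 2.77% of all tested. DESeq2 and limma-voom also called 0 members, with 0 at an unadjusted p under 0.05. Beside this stood 15 of all 479 listed miRNAs by DESeq2 and 6 of all 361 tested by limma-voom. The groups did not overlap for 0 of 5 members, beside 9.42% of all tested. The median of these 5 was 0.20 and that of all tested miRNAs -0.04, and 4 of the 5 were above 0, or 3 when scaled to total miRNA counts without composition scaling, where miR-19a-3p had -0.08. Without normal glucose replicate 3, miR-19b-3p had 1.13, miR-92a-3p -0.997, miR-17-5p 0.094 and miR-20a-5p -0.0088. The fold change of miR-19b-3p was 0.50 without high glucose replicate 3, and that of miR-17-5p was 0.40 without normal glucose replicate 1. For miR-20a-5p it was 0.40 without normal glucose replicate 2 and 0.32 without mannitol replicate 2. The direction of miR-19a-3p was lower without normal glucose replicate 1 (-0.15) or 2 (-0.037) and without high glucose replicate 3 (-0.67).

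The comparison of high glucose with mannitol asks the same at matched osmolality. The same 4 guides were on the higher side, by more than against normal glucose, and miR-92a-3p was again on the lower side, but no member passed the adjusted threshold. The log2 fold change of miR-19b-3p was 1.58 (SE 0.52, 95% interval 0.47 to 2.68; unadjusted p = 0.00815 and adjusted p = 0.704 by edgeR), with group means of 129 ± 50.8 CPM for high glucose against 47.3 ± 33.4 CPM for mannitol (SD, n = 3). It was higher in 8 of 9 pairs. The value was 0.70 (SE 0.42, -0.18 to 1.59) for miR-20a-5p and 0.55 (SE 0.34, -0.17 to 1.27) for miR-17-5p, and -0.61 (SE 0.40, -1.46 to 0.23) for miR-92a-3p. For miR-19a-3p it was 2.10 (SE 1.43, -0.94 to 5.14), with a listed 0 in a library of either group.

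Of the 5 tested members, 0 passed by edgeR beside 0% of all tested miRNAs, and 1, miR-19b-3p, had an unadjusted p under 0.05 and was higher, beside 5.26% of all tested in either direction and 2.22% that were higher. DESeq2 called 0 members, with 1 at an unadjusted p under 0.05, beside 25 of all 479 listed miRNAs. By limma-voom 0 members were called, with 2 at an unadjusted p under 0.05, beside 29 of all 361 tested. The groups did not overlap for 0 of 5 members, beside 10.2% of all tested. The median of the 5 was 0.70 and that of all tested miRNAs -0.04, and 4 of the 5 were above 0 under every scaling tried. Scaling to the constant per library behind the authors' normalized column put the median over all tested miRNAs at -0.59 and gave 1.24 for miR-19b-3p, 0.27 for miR-20a-5p, 0.11 for miR-17-5p and -1.29 for miR-92a-3p. Single mannitol libraries bore on these values. Without mannitol replicate 2, edgeR called miR-19b-3p (2.47, adjusted p = 0.0465), the 1 call among 372 tested miRNAs. In that fit 96 of the 372 had an unadjusted p under 0.05, and miR-20a-5p had 1.42, miR-17-5p 0.97 and miR-92a-3p -0.92. Without mannitol replicate 3 the values of miR-19b-3p, miR-20a-5p, miR-17-5p and miR-92a-3p were 1.35, 0.34, 0.28 and -0.22. When all listed miRNAs were tested without the expression filter, edgeR also called miR-19b-3p (1.58, adjusted p = 0.0421), and over all alternatives its adjusted p ranged from 0.0421 to 0.9998. Without high glucose replicate 3 miR-19a-3p had 1.32, and miR-92a-3p had -0.30 with the trend on GC content removed.

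The comparison of the mannitol and normal glucose groups covers added osmolality without added glucose. Every tested member was on the lower side, and none passed the threshold. The log2 fold change was -1.99 (SE 1.43, 95% interval -5.03 to 1.05) for miR-19a-3p and -0.78 (SE 0.51, -1.88 to 0.32) for miR-19b-3p. It was -0.50 (SE 0.42, -1.39 to 0.39) for miR-20a-5p, -0.30 (SE 0.34, -1.02 to 0.42) for miR-17-5p and -0.08 (SE 0.40, -0.92 to 0.76) for miR-92a-3p. This comparison and the previous one share the mannitol libraries.

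By edgeR 0 of the 5 members passed, beside 0% of all tested miRNAs, and the adjusted p was 0.9996 for each. At an unadjusted p under 0.05 there were 0 members, beside 1.39% of all tested. DESeq2 and limma-voom also called 0 members, with 0 at an unadjusted p under 0.05. Beside this stood 3 of all 479 listed miRNAs by DESeq2 and 3 of all 361 tested by limma-voom. The groups did not overlap for 1 of 5, miR-19a-3p, which was lower, beside 3.32% of all tested without overlap in either direction and 1.11% that were lower. At the low counts of miR-19a-3p this separation is not resolved from counting error. The median of the 5 was -0.50 and that of all tested miRNAs 0.01. All 5 were below 0 with TMM scaling, 4 with total counts, where miR-92a-3p had 0.04, and 3 when scaled to the constant per library. In that last scaling the median over all tested miRNAs was 0.50, and miR-17-5p had 0.06 and miR-92a-3p 0.50. Without mannitol replicate 3 miR-17-5p had -0.028, miR-20a-5p -0.14 and miR-92a-3p -0.47, and without mannitol replicate 2 they had -0.61, -1.10 and 0.35. Without normal glucose replicate 1 miR-92a-3p had 0.11 and miR-17-5p -0.15, and without normal glucose replicate 2 miR-92a-3p had 0.14 and miR-20a-5p -0.26. For miR-19b-3p the value was -1.59 without mannitol replicate 2, -0.42 without mannitol replicate 1 and -0.39 without normal glucose replicate 3.

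**Figure D3:**
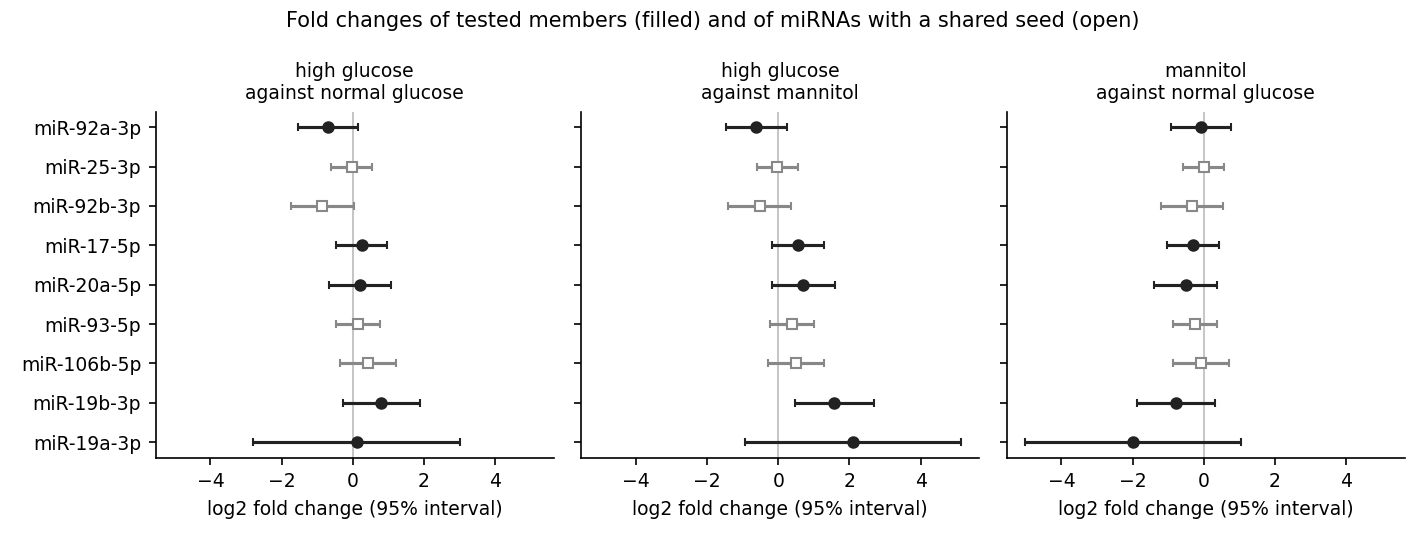
Log2 fold change with its 95% interval from the joint edgeR fit for the 5 tested members (filled circles) and for 4 miRNAs outside the 2 clusters that share a seed with them (open squares), in the 3 comparisons. The interval of miR-19b-3p in high glucose against mannitol, 0.47 to 2.68, is the only one shown that does not cross 0.

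Guides encoded on the miR-17-92 transcript did not keep a fixed ratio in the vesicles, although part of miR-19b-3p and miR-92a-3p may come from the other cluster. Within a library such ratios do not depend on the scaling. The ratio of miR-20a-5p to miR-17-5p was the steadiest, from 1.597 to 3.09 over the 9 libraries with a median of 2.18. For miR-19b-3p over miR-17-5p the ratio ran from 0.0644 to 0.359, and for miR-92a-3p over miR-17-5p from 10.1 to 79.9, a spread of 7.88 times. These ratios were not tested.

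By group, miR-92a-3p stood at 28.4, 32.5 and 18.4 times miR-17-5p in normal glucose, at 35.6, 10.1 and 79.9 times with mannitol, and at 18.3, 10.9 and 13.7 times in high glucose. All 3 high glucose ratios lay below all 3 normal glucose ratios, by 18.30 against 18.37 at the closest, while the mannitol ratios spanned both groups. The closest pair rests on 355 counts of miR-17-5p in high glucose replicate 1 and 403 in normal glucose replicate 3. Counting error at such counts is larger than the gap, so the separation is not resolved. How many other ratios separate these groups was not computed. The ratio of miR-19b-3p to miR-17-5p was 0.135, 0.139 and 0.355 in normal glucose, 0.0644, 0.179 and 0.157 in the mannitol libraries, and 0.155, 0.316 and 0.359 in the high glucose libraries, with overlap between all groups.

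Profiles over the 9 libraries were compared by the root mean square (RMS) difference of log2 CPM, each miRNA centred on its own mean, which is 0 for identical profiles. These are descriptions: all profiles run over the same 9 libraries, with the same differences in depth and group between them. Between members the value was 0.272 for miR-17-5p and miR-20a-5p, 0.761 for miR-17-5p and miR-19b-3p, 0.900 for miR-17-5p and miR-92a-3p, and 1.47 for miR-19b-3p and miR-92a-3p. Among 256 other miRNAs listed in all libraries, the one nearest to miR-17-5p was miR-93-5p of the Mcm7 cluster, at 0.158, nearer than any other member, followed by miR-186-5p at 0.270 and miR-24-2-5p at 0.277, where the median of all 256 was 0.593. The nearest to miR-92a-3p were miR-99b-5p at 0.201, let-7d-3p at 0.217 and miR-92b-3p at 0.242 (median of all 0.707), and the nearest to miR-19b-3p were miR-362-3p at 0.412, miR-96-5p at 0.472 and miR-503-5p at 0.543 (median of all 1.02).

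Base composition was set beside these profiles. The GC content of the mature sequence is 57.1% for miR-92a-3p, 47.8% for miR-17-5p and 39.1% for miR-20a-5p and miR-19b-3p. Over all tested miRNAs with a sequence, the slope of log2 CPM per 10 GC points, relative to the mean library, was 0.27, -0.15 and -0.17 in normal glucose, 0.40, -0.19 and 0.36 in the mannitol libraries, and 0.06, -0.41 and -0.19 in the high glucose libraries. The libraries with the 2 largest slopes, mannitol replicates 1 and 3, were those with the least miR-19b-3p, and the library with the lowest slope, high glucose replicate 2, was the one with the least miR-92a-3p. Normal glucose replicate 2 went the other way, with a slope of -0.15, miR-92a-3p 0.46 above its mean on the log2 scale and miR-19b-3p at -0.47. Of the profiles nearest to miR-19b-3p, the GC content is 40.9% for miR-362-3p, 39.1% for miR-96-5p and 56.5% for miR-503-5p. Of those nearest to miR-92a-3p it is 63.6% for miR-99b-5p, 50% for let-7d-3p and 63.6% for miR-92b-3p. The part of GC content in these profiles was not tested. With the GC trend removed in each library, high glucose against mannitol gave 1.29 (SE 0.40) for miR-19b-3p, 0.49 (SE 0.31) for miR-17-5p, 0.43 (SE 0.34) for miR-20a-5p and -0.30 (SE 0.33) for miR-92a-3p. High glucose against normal glucose gave 0.60 (SE 0.39) for miR-19b-3p, 0.21 (SE 0.30) for miR-17-5p, 0.0087 (SE 0.34) for miR-20a-5p and -0.57 (SE 0.33) for miR-92a-3p.

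**Figure D4:**
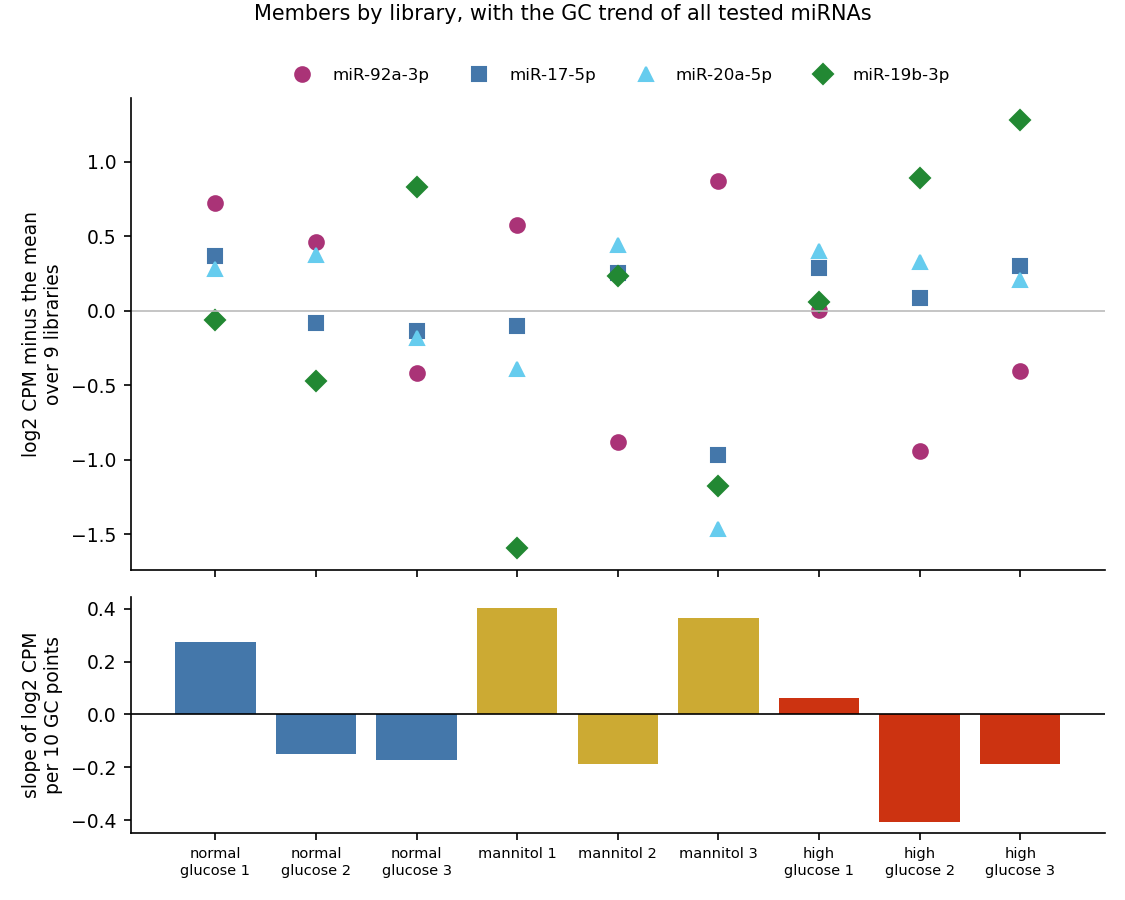
Top, log2 CPM of the 4 members listed in all libraries, each minus its own mean over the 9 libraries, by library; bottom, slope of log2 CPM on the GC content of the mature sequence over tested miRNAs, per 10 percentage points of GC, relative to the mean library, coloured by group. In mannitol replicates 1 and 3, with slopes of 0.40 and 0.36, miR-92a-3p is above its mean and miR-19b-3p below its own, and in high glucose replicates 2 and 3, with slopes of -0.41 and -0.19, the order is the reverse, while normal glucose replicate 2, with a slope of -0.15, has miR-92a-3p above its mean and miR-19b-3p below.

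Other miRNAs carry the seeds of the members, so the levels above were set beside the whole seed families. Of the counts with the miR-17 seed, the clusters examined here supplied 37.4% on average (27.8% to 45.2% over the 9 libraries): miR-20a-5p 26.0% (17.1% to 34.2%) and miR-17-5p 11.4% (10.7% to 12.2%). Most of the rest was miR-93-5p, at 59.7%, and miR-106b-5p gave 2.88%, both from the Mcm7 cluster. The share of miR-17-5p varied less between libraries than that of miR-20a-5p, which was lowest in mannitol replicate 3.

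In the family with the miR-92 seed the clusters supplied a smaller part. Guides of these clusters, almost entirely miR-92a-3p, made up 21.4% of its counts (15.8% to 32.4%), and miR-25-3p of the Mcm7 cluster 78.2%. By library the share of miR-92a-3p and miR-363-3p had a mean of 17.1% ± 0.891 in high glucose, 22.7% ± 7.43 for mannitol and 24.4% ± 7.84 for normal glucose (SD, n = 3), with normal glucose replicate 3 at 16.8% and mannitol replicate 2 at 15.8% inside or below the high glucose range of 16.5% to 18.1%. The miR-18 and miR-19 seeds occurred in no other identifier of the tables with a RefSeq sequence.

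**Figure D5:**
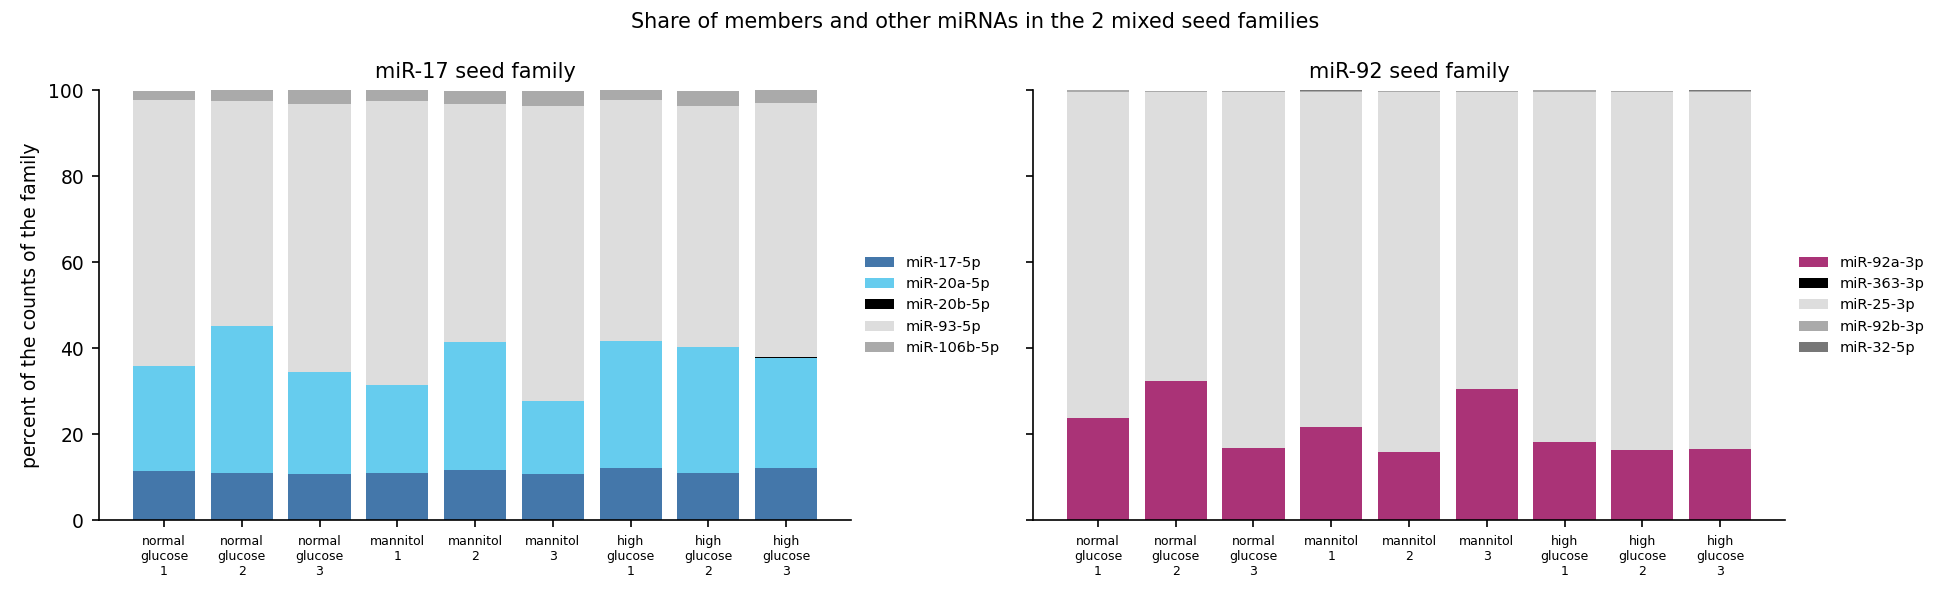
Share of each miRNA in the counts of the miR-17 seed family (left) and the miR-92 seed family (right), in percent, for each library; coloured and black bars are members and grey bars other miRNAs with the same seed. The miR-17-5p share stays between 10.7% and 12.2%, and the miR-92a-3p share in the 3 high glucose libraries is 16.5% to 18.1%.

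The Mcm7 cluster, the closest relative of these clusters, was taken as a further description. Its 3 guides were listed in all libraries. In high glucose against mannitol miR-93-5p had a log2 fold change of 0.39 (SE 0.29) and miR-106b-5p 0.50 (SE 0.37), and miR-25-3p had -0.03 (SE 0.27). Against normal glucose the values were 0.14 (SE 0.29), 0.42 (SE 0.37) and -0.03 (SE 0.27). None passed by edgeR (adjusted p = 0.767 or above and 0.995), and the same holds for the seed partner miR-92b-3p, with -0.53 (SE 0.41) and -0.86 (SE 0.41). Between high and normal glucose miR-92b-3p did not overlap, being higher in 0 of 9 pairs, beside 9.42% of all tested without overlap in either direction.

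Depth and other cell types were checked once for all libraries. Total miRNA counts ran from 725211 to 2553690 per library, both extremes being high glucose libraries. The miR-30 family, abundant in podocytes but not specific to them, was listed in full (5 of 5 in all libraries), with a summed level of 126420 to 140209 CPM in normal glucose, 106713 to 177083 CPM for mannitol and 149949 to 224982 CPM in high glucose, the last without overlap with normal glucose. Of 8 blood, immune and liver miRNAs 4 were listed in all libraries and miR-142a-3p in none, and their sum was 21288 to 38921 CPM in normal glucose, 19120 to 44081 CPM with mannitol and 16469 to 29940 CPM in high glucose. Of 4 tubule miRNAs 3 were listed in all libraries and miR-204-5p in none, and their sum was 2286 to 3483 CPM in normal glucose, 2348 to 3211 CPM for mannitol and 3323 to 5008 CPM in high glucose, the last without overlap with mannitol. The sum of 3 striated muscle miRNAs was 1666 to 3029 CPM in normal glucose, 1368 to 5994 CPM for mannitol and 1401 to 1761 CPM in high glucose. Sums over 2 endothelial and 2 neural miRNAs were at most 825 and 273 CPM in any library, with overlap between all groups. For comparison, single miRNAs did not overlap between high and normal glucose for 9.42% of all tested, and between high glucose and mannitol for 10.2%. No list was tested for a difference between groups. The part of these lists in the members' values was not tested. Levels are shares of a bulk vesicle pool, so that fewer cells or vesicles of a type and less RNA per cell or vesicle cannot be told apart.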

How the data were processed

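Small RNA of podocyte vesicles was measured in 9 libraries, 3 per group, grouped by the treatment label. Per the file headers, each deposited table gives total counts and a normalized value for 1915 miRNA identifiers. The deposited counts are whole numbers per identifier, and the deposited normalized values are RPM, equal to the count divided by 1 constant per library. What is counted in that constant is unknown. The submitters' processing notes name bcl2fastq, BWA and the build mm10; their versions, settings and handling of multiply mapping reads are not given in the sources used. Total counts were 725211 to 2553690. Titles number the second and later libraries of a group, and the unnumbered title is called replicate 1.

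Counts were fitted with edgeR 4.0.16 in R 4.3.3 (TMM, filtering by group, robust quasi-likelihood test, all 9 libraries jointly, two-sided, Benjamini-Hochberg over the 361 tested of 479 listed miRNAs). SE and 95% intervals were derived from the same fit. Each SE is the absolute log2 fold change divided by the square root of its quasi-likelihood F statistic. The interval adds and subtracts that SE times a t quantile. Alternatives were DESeq2 1.42.0, limma-voom (limma 3.58.1), other scalings, no filter, listed zeros set to 9, a linear GC trend removed (308 of 361 had a sequence), a replicate block and each library left out. The edgeR script was tested on simulated data with 1 fixed spread, no GC trend and no listing cutoff. That checks the code and not its power on these libraries. CPM used all miRNA counts of a library. Named outside the members, by a written rule, were the opposite arms, the 3 Mcm7 cluster guides, seed-sharing miRNAs at a mean of at least 10 CPM, and the 3 nearest profiles. Members and lists were chosen with earlier results of these data known.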

Additional observations from a re-analysis of the deposited data

How the results depend on the processing

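The 15 fold changes of tested members were computed under 19 alternatives each, and 11 kept their direction in all 19. The other 4 reversed under some. Of the 15 intervals in the main fit, all span 0 except that of miR-19b-3p in high glucose against mannitol (0.47 to 2.68). A kept direction is thus no measure of certainty, since the alternatives use the same libraries. In high glucose against normal glucose miR-19a-3p had -0.11 by limma-voom, -0.085 with total counts, -0.19 with the GC trend removed, -1.02 with the replicate block and -1.26 with the replicate block and GC trend removed, and -0.67 to 0.64 with a library left out; miR-20a-5p had -0.0088 to 0.40 with a library left out. In mannitol against normal glucose miR-17-5p had 0.062 with scaling to the library constant. There miR-92a-3p had 0.036 with total counts, 0.50 with the library constant, 0.070 with listed zeros set to 9 and -0.47 to 0.35 with a library left out. Over all miRNAs, edgeR without the expression filter called 2, 3 and 1 of 479 in the 3 comparisons in the order of the report. With the filter it called 0 of 361. With listed zeros set to 9 it called 1 of 479 in mannitol against normal glucose. Among members it called 1 without the filter in high glucose against mannitol. In the same comparison with a library left out it called 0 to 1 of all miRNAs and 0 to 1 members. That 1 call, of 372 tested, came without mannitol replicate 2. The member was miR-19b-3p each time.

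The numbers in the titles were not taken to pair the libraries, since the first title of each group has none. Same-numbered libraries were nevertheless alike in part: 7 of their 9 correlations were over 0.1 (-0.058 to 0.52 across miRNAs). Of the 9 libraries, 6 correlated best with their own number in both other groups. The main fit takes no account of this likeness. With the replicate block edgeR called 0 in each comparison, and miRNAs at an unadjusted p under 0.05 numbered 19, 52 and 17 against 10, 19 and 5 without it; of the 5 members 0, 3 and 1 were among them, against 0, 1 and 0. Depth limits the values of miR-18a-5p, miR-19a-3p and the 4 guides of chromosome X, each listed at 0 in 2 or more libraries, since counts under 10 are not listed.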
